A study of Canis lupus familiaris with 26 samples.

Results

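The genes described here are PRKG2, VWA5A, DMXL2, ARHGAP21, ZNF365, LPIN1, IDS and MAPRE3, 8 of the 19856 genes counted in each canine corpus luteum (CL). They were chosen by their level in the control dogs, where they were among the genes most consistently higher in mature (days 20 and 30 after ovulation) than in early (days 5 and 10) CL. In the contrast of mature over early controls their P-values ranked between 1 and 13 among the 13503 genes tested. That contrast is therefore given as a description only, and the tests within the firocoxib-treated dogs are the ones that share no sample with the choice. Tests of treated against control CL set new samples against the control values that chose the genes.

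The study followed the CL of mixed-breed bitches, 2 to 7 years old, over the first weeks of diestrus, and asked how the tissue changes with time and when prostaglandin synthase 2 (PTGS2, also called COX2) is inhibited in the living animal. Firocoxib, a selective inhibitor of this enzyme, was given by mouth at 10 mg/kg each day from the day of ovulation, and controls received a placebo. The 8 groups were controls on day 5 (n = 4), day 10 (n = 3), day 20 (n = 3) and day 30 (n = 3), and treated dogs on day 5 (n = 4), day 10 (n = 3), day 20 (n = 3) and day 30 (n = 3). The ages of the single groups are not given in the sources used here, libraries that the study set aside as divergent are not analysed here, and each library came from the CL of a different dog. The RNA came from whole trimmed CL, so fewer cells of a type and less RNA per cell cannot be told apart.

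The CL forms from the ruptured follicle and secretes progesterone. In the dog it is the only source of this hormone during pregnancy, and it passes from an early phase that is largely independent of pituitary support to a mature phase that depends on luteinizing hormone and prolactin. Luteal cells are rich in lipid droplets, membranes, endosomes and lysosomes, through which cholesterol for steroid synthesis is stored and moved. The 8 genes encode proteins of different kinds, and their roles in luteal cells were not tested here. PRKG2 is a membrane-bound protein kinase activated by cyclic GMP, ARHGAP21 is a GTPase-activating protein that acts at the Golgi and at cell junctions, and MAPRE3 is an end-binding protein that rides on the growing tips of microtubules. DMXL2 (rabconnectin-3) helps to assemble the vacuolar proton pump that acidifies endosomes and lysosomes, and IDS is the lysosomal sulfatase that starts the breakdown of heparan and dermatan sulfate. LPIN1 is a phosphatidate phosphatase that makes diacylglycerol for triglyceride and phospholipid synthesis and also acts as a transcriptional coactivator. ZNF365 is a zinc finger protein linked to centrosomes and genome stability, and VWA5A is a protein with a von Willebrand factor type A domain.

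Totals were between 12831896 and 22658950 reads per library, and 14868 to 15749 genes had at least 1 read. Levels are given as CPM (reads of a gene scaled to a common library size), scaled by TMM factors, and are compared between samples of 1 gene, never between genes, since no gene lengths were used. The 30 pairs of libraries within groups all differed by more than sampling noise (chi-square per degree of freedom of 49.0 to 612). Of 10 luteal marker genes fixed for the analysis, 4 could be matched to identifiers (LHCGR, PRLR, NR5A2 and FDX1), and their summed level was between 331 and 2527 CPM in every library. STAR and CYP11A1, the defining genes of steroid synthesis, were not matched and are not analysed here.

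In the controls, the largest step of each gene lay between day 10 and day 20. PRKG2 (ENSCAFG00000008898) was nearly silent early, at 0.293, 0.111, 0.230 and 0.216 CPM on day 5 and 0.465, 0.0913 and 0.118 CPM on day 10, values that rest on 2 to 7 reads each. It stood at 23.6, 10.4 and 2.32 CPM on day 20 and at 11.5, 7.95 and 20.8 CPM on day 30. The lowest mature control, replicate 3 of day 20, still held 44 reads, and the edgeR log2 fold change of mature over early controls was 5.86 (SE 0.53). The choice of the genes fixed this direction.

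VWA5A (ENSCAFG00000011356) was at 35.2, 44.7, 54.9 and 48.3 CPM on day 5, at 65.6, 62.9 and 34.9 CPM on day 10, at 814, 273 and 233 CPM on day 20 and at 1234, 395 and 585 CPM on day 30. DMXL2 (ENSCAFG00000015444) was at 26.4, 76.8, 37.5 and 73.8 CPM on day 5, at 118, 51.8 and 51.6 CPM on day 10, at 942, 484 and 356 CPM on day 20 and at 531, 419 and 635 CPM on day 30. These were the next largest differences, with log2 fold changes of 3.56 (SE 0.36) and 3.16 (SE 0.33). In both genes replicate 1 was the highest of the day 20 controls.

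The other 5 genes differed less but with little spread. Between early and mature controls, the means were 126 ± 14.96 (SD, n = 7) and 398 ± 61.6 CPM (SD, n = 6) for ARHGAP21 (ENSCAFG00000004249), and 34.3 ± 6.21 and 111 ± 21.4 CPM for ZNF365 (ENSCAFG00000013039). They were 23.6 ± 4.65 and 85.2 ± 24.3 CPM for LPIN1 (ENSCAFG00000003621), and 492 ± 92.5 and 1335 ± 157 CPM for IDS (ENSCAFG00000019096). MAPRE3 (ENSCAFG00000004627) was at 28.5 ± 6.88 and 85.1 ± 14.2 CPM. Their log2 fold changes lay between 1.43 and 1.85, and for all 8 genes every mature control was above every early one. Of all genes tested in this contrast, 3.04% had mature controls all above the early ones and 10.1% were called higher, but the choice used these samples and nothing is read from the shares.

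The steps between the means of consecutive days in controls showed where the genes parted. From day 10 to day 20 the mean log2 CPM was higher by 4.83 for PRKG2, 3.00 for DMXL2, 2.83 for VWA5A, 1.71 for ARHGAP21, 1.71 for ZNF365, 1.34 for LPIN1, 1.28 for IDS and 1.28 for MAPRE3. The step from day 5 to day 10 was between -0.08 and 0.48 for each of them. From day 20 to day 30 the step was 0.82 for VWA5A, 0.68 for LPIN1 and 0.56 for PRKG2, and between -0.20 and 0.09 for the other 5.

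**Figure D1:**
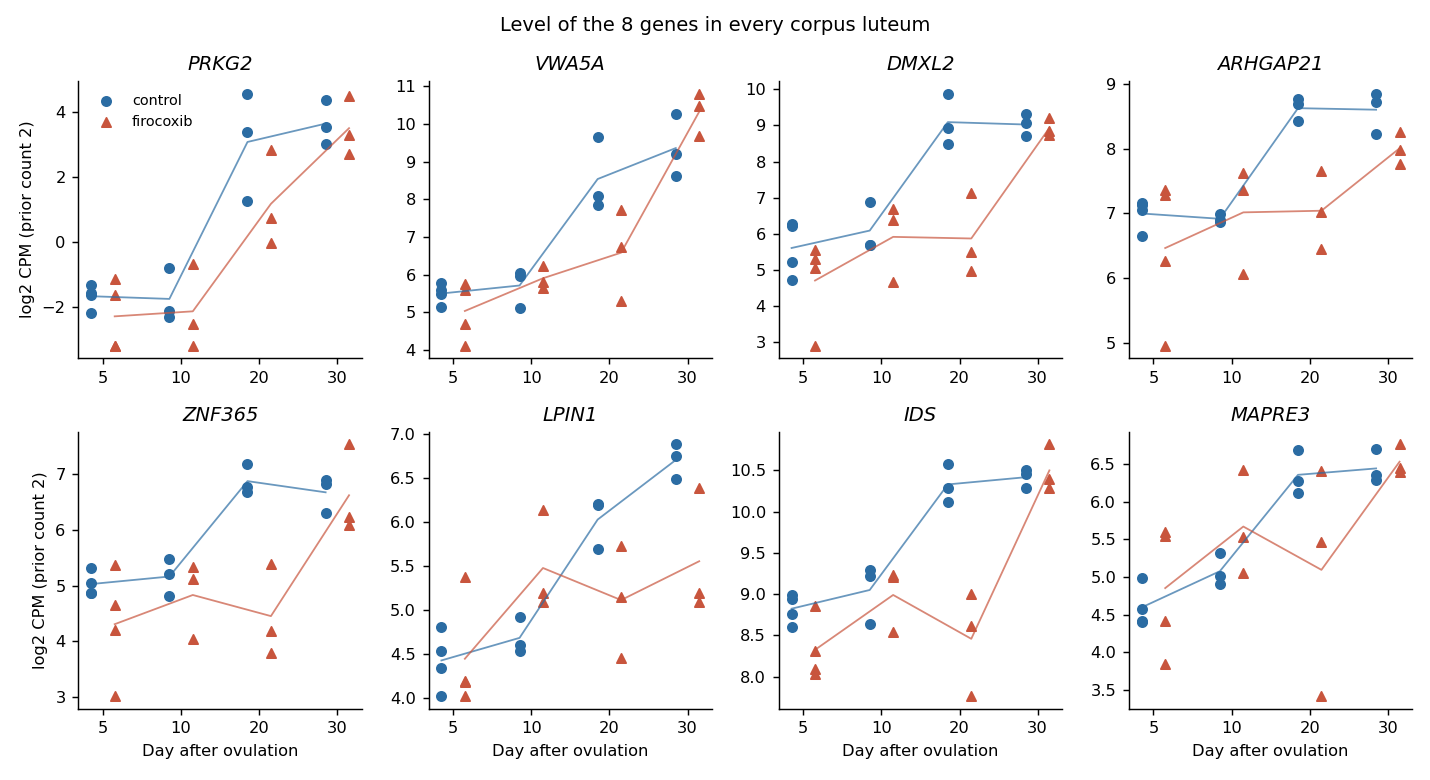
Log2 CPM (prior count 2) of the 8 genes in each of the 26 corpora lutea by day after ovulation, with circles for controls, triangles for firocoxib-treated dogs and lines joining the group means. The control means step up between days 10 and 20, whereas most treated means step up between days 20 and 30, and the scales differ between panels.

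Whether the genes also rose in treated dogs was tested by comparing the 6 CL of days 20 and 30 with the 7 CL of days 5 and 10. All 8 had a positive log2 fold change, with a median of 1.28 against -0.0025 over the 13747 genes tested. PRKG2 passed the filter on low counts only through its late samples and so had to differ, and over the other 7 genes the median was 1.18. PRKG2, VWA5A and DMXL2 rose by the thresholds of the study (P under 0.01 and FDR under 0.1). A call in this direction was made for 1.54% of all genes, 212 of them. Unadjusted P was under 0.05 with a positive change in 4 of the 7 genes other than PRKG2, against 7.34% of all genes.

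Some markers of cell types changed over the same contrast. In treated dogs LHCGR, 1 of the 4 luteal markers, was higher late (log2 fold change 1.72, edgeR FDR 0.0636), while AIF1, 1 of 3 immune markers, DES, 1 of 6 smooth muscle and pericyte markers, and INHA, 1 of 3 granulosa markers, were lower (-1.26, -2.50 and -2.20, edgeR FDR 0.0644, 0.0217 and 0.0519). The other members of these lists did not all follow. FDX1, NR5A2 and PRLR were at -0.77, -0.02 and 0.06, FSHR and FST at 0.52 and 2.23, and RGS5 at 0.12. CD68 and LYZ were lower, as AIF1 was (-1.82 and -1.05), and so were ACTA2, TAGLN, CNN1 and MYH11, as DES was (-2.19 to -0.27). None of these others was called. The summed levels overlapped between the stages, from 944–2408 to 331–1879 CPM for luteal, 4162–26235 to 2417–13820 CPM for fibroblast and 4.10–92.2 to 5.93–258 CPM for oocyte markers. In controls all 7 fibroblast and all 3 immune markers were called lower in mature CL. So were 2 of 6 smooth muscle and pericyte, 2 of 3 granulosa and 2 of 5 oocyte markers and the 1 erythrocyte marker. Called higher in mature controls were 1 of 4 luteal and 2 of 4 endothelial markers. Under firocoxib the endothelial list had a median of -0.56, with no call. The markers were matched through the study's lists of differing genes, which favours calls in this contrast. The part of these changes in the rise of the 8 genes was not tested.

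PRKG2, the cyclic GMP-dependent kinase, had 0 reads in 3 of the 7 early treated CL and at most 11 reads in the others, the highest being 0.512 CPM in replicate 5 of day 10. On day 20 it was at 1.56, 0.867 and 6.99 CPM and on day 30 at 9.73, 6.49 and 22.4 CPM. Every late treated CL was above every early one. This held for 0.393% of all genes, a share that is no yardstick for a gene kept through its late samples alone. The log2 fold change was 5.52 (SE 0.94, edgeR FDR 0.0117), a value that leans on very low early counts.

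VWA5A was at 53.5, 25.8, 48.0 and 17.3 CPM on day 5 and at 56.2, 75.6 and 50.5 CPM on day 10 under firocoxib. It was at 211, 39.5 and 106 CPM on day 20 and at 827, 1436 and 1792 CPM on day 30. Replicate 3 of day 20 still lay among the early samples, so the groups overlapped, but the log2 fold change of 4.00 (SE 0.75, edgeR FDR 0.0167) passed.

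DMXL2, the assembly factor of the proton pump, was at 7.41, 39.5, 33.1 and 47.2 CPM on day 5, at 25.4, 104 and 83.1 CPM on day 10, at 45.5, 31.3 and 140 CPM on day 20 and at 461, 427 and 591 CPM on day 30. The day 30 values stood far above the early ones, and of the day 20 samples only replicate 4 exceeded them. The log2 fold change was 2.56 (SE 0.69, edgeR FDR 0.0709). This call was the least secure, since limma voom did not make it (FDR 0.168), and it was lost in 8 of the 13 fits that left out 1 sample, with FDR values up to 0.168.

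The remaining 5 genes did not pass. The log2 fold changes were 1.37 for ZNF365 (SE 0.54, edgeR FDR 0.182), 1.18 for IDS (SE 0.44, edgeR FDR 0.160), 0.74 for MAPRE3 (SE 0.47, edgeR FDR 0.378), 0.73 for ARHGAP21 (SE 0.41, edgeR FDR 0.327) and 0.41 for LPIN1 (SE 0.38, edgeR FDR 0.556). Their early and late treated samples overlapped. Leaving out the 3 treated CL of day 20, a comparison chosen after the data were seen, gave calls for 5 genes, adding ZNF365 (2.08, edgeR FDR 0.0388) and IDS (1.86, edgeR FDR 0.0116). Calls over all genes also grew, to 1124 of 13645, 492 of them higher. Day 20 alone against days 5 and 10 gave no call for any of the 8, nor for any gene at all, with 1236 genes at an unadjusted P under 0.05, where PRKG2 stood at 4.19 in log2 (edgeR FDR 0.240).

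**Figure D2:**
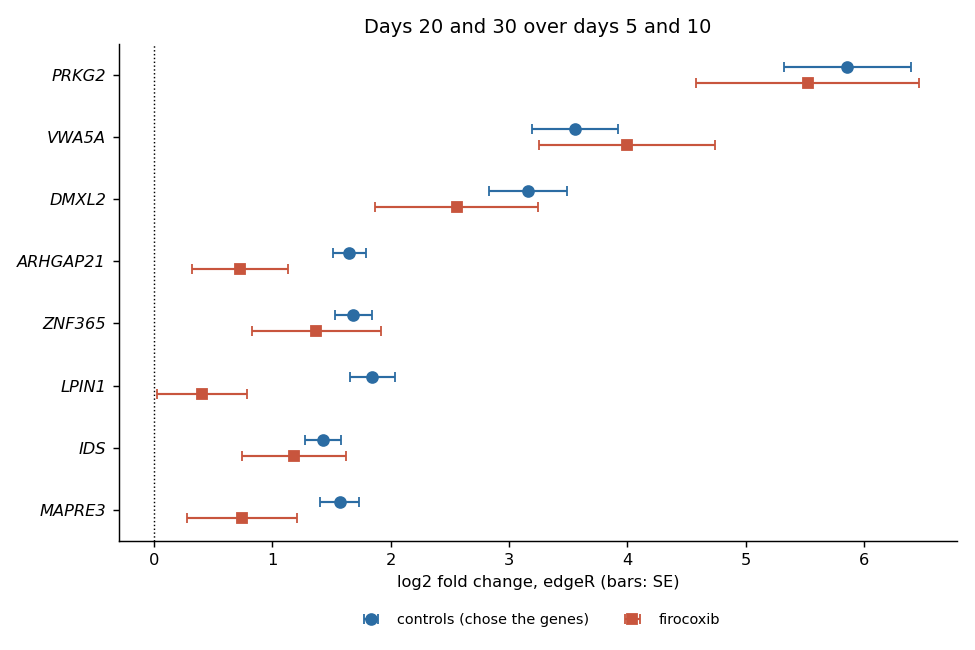
Late (days 20 and 30) over early (days 5 and 10) log2 fold change for each gene, fitted with edgeR in controls (circles, the contrast that chose the genes) and in firocoxib-treated dogs (squares), with standard errors. The treated estimates are positive for all 8 genes and have wider errors, from 0.38 for LPIN1 to 0.94 for PRKG2.

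The days were therefore looked at one by one. In treated dogs the step from day 5 to day 10 was between 0.43 and 1.19 in log2 for the 7 genes with enough reads, with no call (0% of all genes by edgeR, 604 at an unadjusted P under 0.05, and 44 calls by DESeq2, none among the 7). From day 10 to day 20, when the controls gained most, edgeR again called 0% of all genes (743 at an unadjusted P under 0.05, and 165 calls by DESeq2). Of the 8 genes PRKG2 alone had all day 20 samples above all day 10 samples, with 7.07% of all genes doing so. Its day 10 values rest on 0, 1 and 11 reads. It passed the filter on low counts only through day 20, so this share is no yardstick for it. Its log2 difference was 3.89 (SE 1.33, edgeR FDR 0.865). VWA5A had 0.96 (SE 0.62), and the other 6 genes lay between -0.49 and 0.01.

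From day 20 to day 30 under firocoxib all 8 differences were positive, with a median of 2.05 against -0.05 over the 13692 genes tested. They were 3.57 for VWA5A (SE 0.68), 2.81 for DMXL2 (SE 0.63), 2.21 for ZNF365 (SE 0.61), 2.08 for PRKG2 (SE 0.84), 2.02 for IDS (SE 0.46), 1.06 for MAPRE3 (SE 0.65), 0.94 for ARHGAP21 (SE 0.43) and 0.52 for LPIN1 (SE 0.51). All 3 samples of day 30 were above all 3 of day 20 for VWA5A, DMXL2, ZNF365, IDS and ARHGAP21, 5 of the 8, against 10.1% of all genes. PRKG2, VWA5A, DMXL2, ZNF365 and IDS had an unadjusted P under 0.05, again 5 of the 8, against 4.25% of all genes with a positive change. Marker levels moved in the same step. The luteal markers summed to 331–1088 CPM on day 20 and 1371–1879 CPM on day 30, and the 3 granulosa markers to 537–874 and 1385–3152 CPM. The 7 fibroblast markers summed to 9874–13820 and 2417–5453 CPM, and the 5 oocyte markers to 148–258 and 5.93–128 CPM. None of these sums overlapped between the days, and their part in the step was not tested. The luteal and granulosa sums rest largely on a single gene each, FDX1 (mean 743 CPM over days 20 and 30 under firocoxib) and FSHR (1315 CPM).

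None of these passed the correction. The edgeR FDR was 0.374 for VWA5A, DMXL2, ZNF365 and IDS and 0.756 for LPIN1, and edgeR called 0% of all genes in this step, with 1473 at an unadjusted P under 0.05. DESeq2 called 562 genes, 212 of them higher, and limma voom none. An edgeR fit of all 26 samples called 318 of 14171, 161 of them higher. VWA5A, DMXL2, ZNF365 and IDS were called by DESeq2 (FDR at most 0.0281) and in that fit of all 26 samples (edgeR FDR at most 0.0545).

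A common scale shows the course of each CL over the 8 genes. For each gene the mean log2 CPM of early controls was set to 0 and that of mature controls to 100, and the median over the 8 genes was taken as the position of a sample. The scale was made from the controls, so their own positions are not a result. The treated CL of day 20 stood at 12.2, -17.2 and 40.9, and those of day 30 at 96.3, 88.8 and 113. The earlier treated CL were between -43.2 and 24.2.

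The 3 treated CL of day 20 were not alike. Replicate 2 was at 100 for MAPRE3 and 63.5 for VWA5A but at -53.5 for ZNF365 and -30.9 for ARHGAP21. Replicate 3 was at -86.8 for MAPRE3 and -79.7 for IDS, with its highest value, 32.9, for PRKG2. Replicate 4 was above 0 for all 8 genes, from 5.35 for IDS to 89.4 for PRKG2. PRKG2 was the gene in which all 3 had left the early range, though its early values rest on very few reads.

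**Figure D3:**
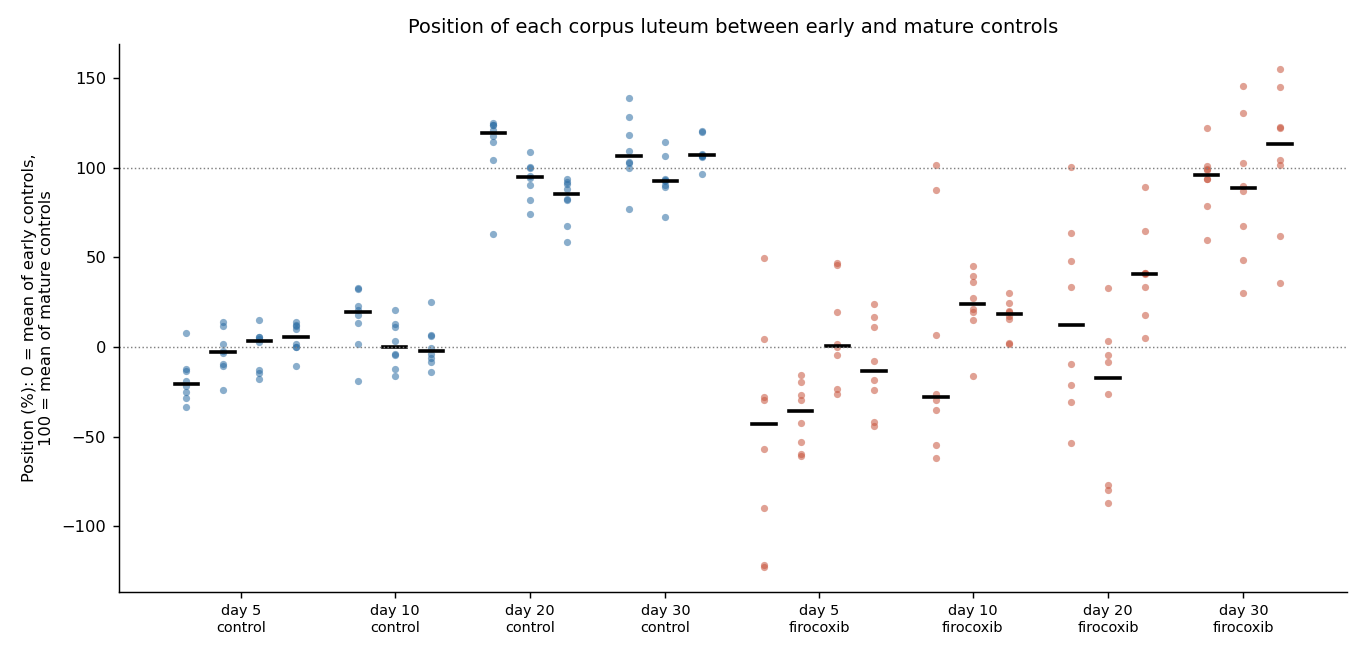
Position of each corpus luteum, in percent, between the mean of early controls (0) and the mean of mature controls (100) on the log2 CPM scale, with a point for each of the 8 genes and a black bar for their median, samples standing side by side within their group. The medians of the day 20 treated samples are 12.2, -17.2 and 40.9, and those of the day 30 treated samples 96.3, 88.8 and 113.

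Against controls of the same day, all 8 genes were lower under firocoxib on day 20. The genes were chosen for high levels in these same controls, which favours this sign, and nothing is read from the members' counts against those of all genes. The median log2 difference was -1.81, against 0.11 over the 13726 genes tested. In 5 of the 8 every treated CL was below every control (13.3% of all genes), and the same 5 had an unadjusted P under 0.05 (5.33% of all genes in this direction). No member was called, and edgeR called 0.102% of all genes, 14 in number, all higher in treated CL.

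ZNF365 was at 145, 110 and 102 CPM in controls and at 18.1, 13.7 and 41.9 CPM in treated CL on day 20. DMXL2 was at 942, 484 and 356 CPM in controls and at 45.5, 31.3 and 140 CPM in treated CL. The highest treated sample of each, replicate 4, was below the lowest control, and the log2 differences were -2.23 (SE 0.52, edgeR FDR 0.143) and -2.99 (SE 0.71, edgeR FDR 0.145).

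IDS, the lysosomal sulfatase, was at 1531, 1253 and 1112 CPM in controls and at 392, 217 and 511 CPM in treated CL (log2 difference -1.76, SE 0.48, edgeR FDR 0.174). ARHGAP21, the GTPase-activating protein, was at 415, 437 and 344 CPM in controls and at 87.5, 130 and 201 CPM in treated CL (-1.47, SE 0.45, edgeR FDR 0.195). VWA5A was at 814, 273 and 233 CPM in controls and at 211, 39.5 and 106 CPM in treated CL (-1.86, SE 0.73, edgeR FDR 0.261). In VWA5A the gap was narrow, replicate 2 of the treated CL lying just under the lowest control.

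The other 3 overlapped. PRKG2 was at 23.6, 10.4 and 2.32 CPM in controls and at 1.56, 0.867 and 6.99 CPM in treated CL (-1.89, SE 0.99, edgeR FDR 0.353). LPIN1 was at 51.4, 72.9 and 73.4 CPM in controls and at 35.5, 21.9 and 52.8 CPM in treated CL (-0.81, SE 0.44, edgeR FDR 0.366). MAPRE3 was at 102, 69.0 and 77.2 CPM in controls and at 84.6, 10.6 and 43.9 CPM in treated CL (-0.82, SE 0.66, edgeR FDR 0.521), replicate 2 falling within the control range.

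The call on day 20 depended on the fit. DESeq2, and also edgeR on all 26 samples, called VWA5A, DMXL2, ARHGAP21, ZNF365 and IDS lower, and leaving out replicate 2 of the day 20 treated CL gave 4 of these, without ARHGAP21. Over all genes DESeq2 called 1479 of 13726, 981 of them higher, and edgeR on all 26 samples 1559 of 14171, 920 of them higher. Without replicate 2 of the day 20 treated CL, edgeR called 1016 of 13722, 778 of them higher. Lists of marker genes moved on the same day. The 4 luteal markers summed to 1661–2527 CPM in day 20 controls and 331–1088 CPM in day 20 treated CL, and 3 granulosa cell markers to 1738–2491 and 537–874 CPM. The 7 fibroblast markers summed to 2897–7299 and 9874–13820 CPM, and the 5 oocyte markers to 4.57–9.14 and 148–258 CPM, ZP4 having 0 reads in the 3 controls. Among the luteal markers the log2 differences on day 20 were -2.14 for NR5A2, -1.45 for FDX1, -1.34 for PRLR and 0.04 for LHCGR, and none of the 4 passed edgeR's test. Among the granulosa markers FSHR was at -2.05, INHA at 0.35 and FST at 4.34, so the lower sum was not shared by its members, and none passed. Among the fibroblast markers LUM went the other way, at -1.45, and POSTN was at 0.18. The others lay between 0.87 (PDGFRA) and 1.57 (COL1A1), and none passed. The oocyte markers ZP3 (10.53, edgeR FDR 0.00997), GDF9 (3.57, edgeR FDR 0.0689), ZP4 (9.57, edgeR FDR 0.0960) and BMP15 (8.69, edgeR FDR 0.0960) did pass, all higher in treated CL. ZP2 was at 4.11 and was not called (edgeR FDR 0.102). Whether cell content differed was not tested, nor was the part of these marker differences in the levels of the 8 genes.

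On day 30 most of the genes lay close to their controls. PRKG2, DMXL2, ZNF365, IDS and MAPRE3 had log2 differences between 0.02 and 0.21, with SE of 0.21 to 0.52. The sign of the smallest of these, PRKG2 and DMXL2, turned with the scaling of the counts. IDS, for example, was at 1458, 1247 and 1408 CPM in controls and at 1248, 1804 and 1349.9 CPM in treated CL.

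LPIN1 and ARHGAP21 were the genes with a negative difference on that day. LPIN1, the phosphatidate phosphatase, was at 118, 89.4 and 107 CPM in day 30 controls and at 83.3, 33.9 and 36.5 CPM in treated CL, every treated sample below every control, with a log2 difference of -0.91 (SE 0.37, edgeR FDR 0.610). Such a separation was found for 7.62% of all genes, and these controls were among those that chose LPIN1. ARHGAP21 was at 302, 464 and 424 CPM in controls and at 309, 218 and 254 CPM in treated CL (-0.49, SE 0.25, edgeR FDR 0.654). VWA5A went the other way, at 1234, 395 and 585 CPM in controls and 827, 1436 and 1792 CPM in treated CL (0.98, SE 0.46, edgeR FDR 0.628). No member was called, and edgeR called 0% of all genes on day 30, with 1074 at an unadjusted P under 0.05 and 116 calls by DESeq2. The 4 endothelial markers summed to 1415–1721 CPM in day 30 controls and 506–1008 CPM in treated CL, without overlap, and their part in these differences was not tested.

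Whether the treatment difference changed between day 20 and day 30 was tested in a fit of all 26 samples, a comparison added after the data were seen. The difference on day 30 minus that on day 20 was 2.94 in log2 for DMXL2 (SE 0.89, edgeR FDR 0.233), 2.76 for VWA5A (SE 0.80, edgeR FDR 0.221), 2.36 for ZNF365 (SE 0.70, edgeR FDR 0.228) and 1.90 for IDS (SE 0.44, edgeR FDR 0.221). It was 1.89 for PRKG2 (SE 1.27), 0.92 for MAPRE3 (SE 0.71), 0.91 for ARHGAP21 (SE 0.63) and -0.19 for LPIN1 (SE 0.57). edgeR called 0% of all genes higher, with 1931 at an unadjusted P under 0.05, so a change between the days was not shown at the threshold. DESeq2 called 354 genes, DMXL2, VWA5A, ZNF365 and IDS among them.

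**Figure D4:**
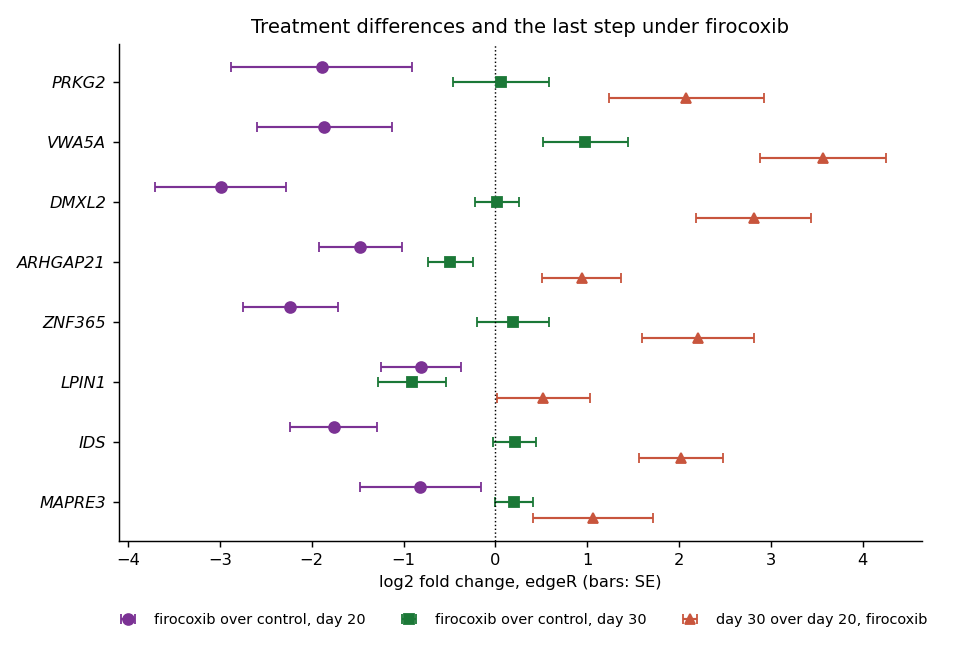
Log2 fold changes with standard errors for each gene, from edgeR fits of firocoxib over control on day 20 (circles), firocoxib over control on day 30 (squares) and day 30 over day 20 within treated dogs (triangles). The day 20 values are all below 0 and the triangles all above it, whereas on day 30 LPIN1 (-0.91) and VWA5A (0.98) lie farthest from 0.

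Early in diestrus none of the genes passed the test between the arms. On day 5 the log2 differences of the 7 genes tested lay between -0.80 for DMXL2 and 0.41 for MAPRE3, and on day 10 between -0.25 for ZNF365 and 0.87 for LPIN1, none of them called by edgeR. PRKG2 had too few reads for these tests. edgeR called 0% of all genes on day 5 and 0% on day 10, with 1609 and 121 at an unadjusted P under 0.05, while DESeq2 called 100 on day 5 and 0 on day 10.

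LPIN1 on day 10 was at 30.1, 24.2 and 23.1 CPM in controls and at 70.3, 36.6 and 34.1 CPM in treated CL, every treated sample above every control (0.87, SE 0.39, edgeR FDR 1), as in 2.21% of all genes. Replicate 1 of the day 10 treated CL, the highest in LPIN1, was also the highest of its group in MAPRE3 at 85.7 CPM, against 46.0 and 33.2 CPM in the others. The same sample was the lowest of its group in ARHGAP21, ZNF365, DMXL2 and IDS. Replicate 1 of the day 5 treated CL was likewise low in ARHGAP21 (30.9 CPM, against 76.5 to 164 CPM in the others), ZNF365 (7.98 CPM, against 18.2 to 41.3 CPM) and DMXL2 (7.41 CPM, against 33.1 to 47.2 CPM).

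The rises of the arms were compared in a fit of all 26 samples with a mean for each group. The treated rise was the smaller one for all 8 genes in this fit, a sign that the choice on the controls favours. For VWA5A the sign depended on the fit, since the separate fits gave 4.00 in treated and 3.56 in control dogs, and 4 stage means gave a difference of 0.40. The difference of the rises was -1.42 in log2 for LPIN1 (SE 0.39, edgeR FDR 0.230), -1.16 for DMXL2 (SE 0.60, edgeR FDR 0.675) and -1.05 for ARHGAP21 (SE 0.43, edgeR FDR 0.540), and between -0.93 and -0.42 for the other 5. edgeR called 0% of all genes, with 1121 at an unadjusted P under 0.05, whereas DESeq2 called 192, among them LPIN1 (FDR 0.0502). LPIN1 thus had the largest shortfall, and it was also the member with the smallest rise under firocoxib.

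For each gene the pair of named genes with the most similar course was sought, by the root mean square difference of centred log2 CPM over all 26 samples. Only the 4359 genes with a symbol could be named, and these were genes that the study had listed as differing in some contrast. PRKG2 was near to MORC1 (1.21), and VWA5A was nearest to CMTM4 (0.71) and SYCE3 (0.73), and DMXL2 to FMO4 (0.72) and C4orf32 (0.73). FMO4, which encodes a flavin-containing monooxygenase, had means of 41.3 CPM in early controls, 269 CPM in mature controls, 22.9 CPM in early treated CL and 167 CPM in late treated CL.

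ARHGAP21 was nearest to HIPK1 (0.33) and DIXDC1 (0.34), and IDS to ARHGEF12 (0.29) and ARHGEF28 (0.34), both of which encode guanine nucleotide exchange factors. ZNF365 was nearest to ATP6V1A (0.36), the catalytic subunit of the vacuolar proton pump, and ERO1B (0.42), an oxidase of the endoplasmic reticulum. ATP6V1A had means of 179 and 383 CPM in early and mature controls and of 132 and 224 CPM in early and late treated CL. LPIN1 was nearest to NCALD (0.45) and NES (0.48), and MAPRE3 to CCDC69 (0.41) and NDRG4 (0.41). The distances grow with the spread of the gene itself, from 0.88 in log2 (SD over 26 samples) for LPIN1 to 2.71 for PRKG2.

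Lists of further genes of the pathways in which the members act were taken from general knowledge of these pathways. Only 7 of 20 genes of cyclic GMP signalling, 5 of 19 of the vacuolar proton pump and its assembly, 7 of 24 of glycerolipid synthesis, 7 of 17 of lysosomal glycosaminoglycan breakdown and 8 of 16 microtubule plus-end proteins could be matched. Since the matched ones were listed by the study as changed in some contrast, the counts do not describe the whole pathways. In the treated dogs 1 of these genes was called, and in the direction of a rise. It was NPR3, the clearance receptor of natriuretic peptides, with a log2 fold change of 2.62 (SE 0.67, edgeR FDR 0.0614). The medians of these lists in treated dogs lay between -0.28 and 0.32, against -0.0025 over all genes tested.

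In the contrast of mature over early controls, the genes of these lists were called as follows, beside 10.1% of all genes called higher and 10.4% called lower. The study's list for this same contrast was a source of the symbols, so a matched gene was favoured to be called here. Nothing is therefore read from the counts and medians of the lists against those of all genes. The counts were 3 higher and 0 lower for cyclic GMP signalling, 3 and 0 for the proton pump, 4 and 0 for glycerolipid synthesis, 2 and 2 for glycosaminoglycan breakdown and 4 and 0 for plus-end proteins. The medians of the lists were between 0.09 and 0.74 in log2, against 0.02 over all genes tested. NPR3 had the largest change, 3.26 (SE 0.53, edgeR FDR 0.00127), and PDE2A, which degrades cyclic nucleotides, had 1.06 (SE 0.24, edgeR FDR 0.00783). PRKG1, the other cyclic GMP-dependent kinase, was not called, with -0.09 in controls (SE 0.23, edgeR FDR 0.802) and 0.62 under firocoxib (SE 0.53, edgeR FDR 0.515).

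The proton pump genes called higher were ATP6V1A (1.09, SE 0.15, edgeR FDR 0.000489), WDR7, the partner of rabconnectin-3 (0.70, SE 0.21, edgeR FDR 0.0300), and ATP6V0A1 (0.59, SE 0.17, edgeR FDR 0.0240). Of the glycerolipid genes, the acyltransferases GPAM (0.70, SE 0.15, edgeR FDR 0.00662), GPAT4 (0.74, SE 0.11, edgeR FDR 0.000803) and AGPAT4 (0.80, SE 0.22, edgeR FDR 0.0211) were higher in mature controls, as was CDS2 (0.79, SE 0.18, edgeR FDR 0.00844). Among the lysosomal enzymes HGSNAT (0.48, SE 0.11, edgeR FDR 0.0102) was higher, whereas GALNS, another sulfatase (-1.03, SE 0.21, edgeR FDR 0.00494), and SUMF1, which activates sulfatases (-0.35, SE 0.11, edgeR FDR 0.0391), were lower. Among plus-end proteins CLASP1 (0.89, SE 0.17, edgeR FDR 0.00321) and CLASP2 (0.88, SE 0.14, edgeR FDR 0.00131) were higher, and MAPRE1, a relative of MAPRE3, was not called (0.29, SE 0.12, edgeR FDR 0.0936).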

How the data were processed

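The authors deposited counts of reads per Ensembl gene for each of the 26 samples. Polyadenylated RNA was sequenced, STAR aligned the reads to the CanFam3.1 genome, and the counts came from featureCounts. Tool versions are not given in the sources used here. The deposited counts were neither normalized nor filtered.

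Symbols were matched to identifiers through the study's lists of differing genes (4355) and RefSeq peptides (4). Genes averaging 10 or more reads in a compared group were tested with edgeR 4.0.16 in R 4.3.3 (TMM factors, quasi-likelihood, Benjamini-Hochberg adjustment over all genes tested). A call needed P under 0.01 and FDR under 0.1, the thresholds of the study. The SE is the log2 fold change divided by the root of its F. Log2 CPM used a prior count of 2. The scripts were tested on simulated data with 200 changed genes.

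The members and the lists were chosen with earlier results of these data known. Genes named beside them were the 2 most similar to each member, and the list gene with the smallest P in each direction among those called under firocoxib, which gave only NPR3. The other list genes were named after their values were seen. A few genes and 1 list are not reported here. Samples of different groups that share an animal number are different dogs, and the numbers were not used in the main fits. The alternatives were DESeq2 1.42.0, limma 3.58.1 voom, RLE factors, no filter, filterByExpr, a fit of all 26 samples, an FDR under 0.05 as the only threshold, a replicate block and the omission of each sample.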

Additional observations from a re-analysis of the deposited data

Results flagged for a closer look

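In LPIN1 1 sample stood apart from its group. Of the 4 treated corpora lutea of day 5, replicate 4 was at 41.5 CPM and the others between 16.3 and 18.3 CPM. On the log2 scale its gap to the next sample was 0.8735 of the range of the group, above Dixon's 95% critical value for 4 samples. This was 1 of 48 such tests of the 8 genes, and chance alone would flag about 1 in 20.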

How the results depend on the processing

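With 3 or 4 dogs a group and 12831896 to 22658950 reads, PRKG2 rests on 0 to 11 reads in early corpora lutea, and the single-day comparisons leave wide errors. Of the 8 genes, edgeR called 3 in the rise under firocoxib. The fit of all 26 samples called 5, day 30 alone 5 and day 20 alone 0 (both chosen after seeing the data), and leaving out single samples gave 2 to 5, the 5 without replicate 2 of the day 20 treated samples. Genes called over the whole table numbered 639, against 1620 with DESeq2, 305 with limma voom, 1705 in the fit of all samples, 193 at an FDR under 0.05, 383 with the replicate block, 1124 with day 30 alone, 0 with day 20 alone and 151 to 1989 with single samples left out. On day 20, 0 of the 8 were called, against 5 with DESeq2, 5 in the fit of all samples and 0 to 4 with single samples left out, the 4 without replicate 2 of the treated samples. All genes called that day were 14, between 1 (FDR under 0.05) and 1559 (fit of all samples) in other settings, and 0 to 1016 with samples left out. DESeq2 called 1 of the 8 (LPIN1) in the difference of the rises, 4 in the last treated step, where the fit of all samples also called 4, and 4 in the difference between days 20 and 30, where edgeR called 0. The cause was not tested.

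Signs turned only for values that were not called. With day 20 alone, the rise was -0.0694 for ZNF365 and -0.10 for IDS. On day 30 PRKG2 was at -0.0139 with DESeq2, -0.0133 with RLE factors, -0.0346 without filter, -0.0235 with filterByExpr and -0.0575 in the fit of all samples, and DMXL2 at -0.0617, -0.0617, -0.0736, -0.062 and -0.10. With single samples left out, the day 30 range was -0.602 to 0.52 for PRKG2, -0.19 to 0.16 for DMXL2, -0.42 to 0.37 for ZNF365 and -0.0501 to 0.26 for IDS. The difference of the rises was 0.40 for VWA5A with 4 stage means, and with single samples left out -0.77 to 0.0459 for VWA5A and -1.36 to 0.52 for PRKG2. For LPIN1 the last treated step ranged from -0.0099 to 0.89 and the difference between days 20 and 30 from -0.69 to 0.22.

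The animal numbers were not taken to pair the samples. Over the 8 same-numbered pairs in the rise under firocoxib, deviations from the group means correlated by 0.0256 on average (-0.582 to 0.425). The 3 pairs of the treated step from day 5 to day 10 averaged 0.366 (lowest 0.0657) and those of treatment on day 5 averaged 0.153 (lowest -0.092), so in neither was every pair over 0.1. With the replicate block that rise gave 4 of the 8 calls, adding MAPRE3 (1.504, FDR 0.0991), and on day 30 PRKG2 was at -0.84, DMXL2 at -0.27 and ZNF365 at -0.57, while LPIN1 was at 0.0065 in the difference between days 20 and 30. No paired analysis was possible for treatment on day 10 or the treated step from day 10 to day 20, because these groups share 1 number.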
